A study of Mus musculus with 12 samples.

Results

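The 10 genes of 3 vasoactive peptide systems described here were measured in the mouse thoracic aorta: adrenomedullin (Adm), the receptor subunit Calcrl with its partners Ramp1, Ramp2 and Ramp3, the receptors for vasoactive intestinal peptide (VIP) Vipr1 and Vipr2, and the natriuretic peptide receptors Npr1, Npr2 and Npr3. They were taken by symbol from the count table, and all 10 of 10 were found among its 27933 genes. The genes were chosen by name, with log2 fold changes and levels from these same libraries already known, so their values are a description and the p-values below support nothing. Of the 10 genes, 9 had enough counts to be tested and Ramp3 did not.

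The 12 RNA libraries from thoracic aortas of C57BL/6J mice fell into 4 groups of 3. Wild-type (WT) mice and mice whose label gives a knockout (KO) of the alpha7-nAChR, a nicotinic acetylcholine receptor, breathed room air or nicotine vapor for 12 weeks from 5 months of age, and were 8 months old at collection. Libraries are named by group and label number, with 8, 9 and 10 for WT in air, 6, 11 and 12 for WT in nicotine, 1, 2 and 7 for KO in air, and 3, 4 and 5 for KO in nicotine. Library totals ran from 10240031 to 12628323 counts. The labels do not say which part of Chrna7, the receptor's gene, was removed. Its counts were 9 to 37 in the WT libraries and 8 to 28 in the KO libraries, so they do not check the genotype, and KO means the libraries labelled KO. The labels do not say that each library is a separate mouse, so p-values measure only how these libraries vary, which may be technical. The libraries held the tissue's own markers at high levels, with 10 smooth muscle markers (Acta2, Myh11 and others) summing to between 26467 and 53425 CPM (counts scaled to a common library size). They also held 12 adipocyte markers (Adipoq, Plin1 and others), at 1781 to 8714 CPM, although fat had been removed by dissection. In KO nicotine 3, 6 hepatocyte markers (Alb, Apoa1 and others) summed to 2390 CPM, against 20.5 to 448 CPM in the other 11 libraries.

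Adrenomedullin is a peptide that relaxes vessels and keeps endothelium tight. Its receptor is the calcitonin receptor-like receptor, encoded by Calcrl, which needs a receptor activity-modifying protein (RAMP) as a partner: RAMP1 makes it a receptor for calcitonin gene-related peptide, and RAMP2 or RAMP3 make it an adrenomedullin receptor. VIP relaxes vessels through VPAC1 (Vipr1) and VPAC2 (Vipr2), which raise cAMP as the adrenomedullin receptors do. The natriuretic peptides act on Npr1 and Npr2, which are receptors that make cGMP, while Npr3 takes the peptides up and clears them.

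The promoters of 5 of the genes are shown because their transcripts carry the patterns described below. Ramp1, Npr1 and Npr2 varied together over the libraries. Vipr1 and Adm had the largest differences between the genotypes in the nicotine effect among the 9 tested genes, though neither passed the test. Each is the 250 bases upstream of the start site in RefSeq's table for GRCm38.p6, which is not the mm9 build of the counts. In the order printed, the windows lie at chr1:91179572-91179821, plus strand, chr3:90465867-90466116, minus strand, chr4:43631685-43631934, plus strand, chr9:121642466-121642715, plus strand, and chr7:110627407-110627656, plus strand. Capitals mark GC boxes (GGGCGG or CCGCCC) and cores of cAMP response elements (TGACG or CGTCA).
Ramp1: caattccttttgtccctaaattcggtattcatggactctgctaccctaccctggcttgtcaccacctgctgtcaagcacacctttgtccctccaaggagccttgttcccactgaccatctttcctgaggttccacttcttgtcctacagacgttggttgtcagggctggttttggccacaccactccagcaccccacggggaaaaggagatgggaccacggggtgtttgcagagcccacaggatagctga
Npr1: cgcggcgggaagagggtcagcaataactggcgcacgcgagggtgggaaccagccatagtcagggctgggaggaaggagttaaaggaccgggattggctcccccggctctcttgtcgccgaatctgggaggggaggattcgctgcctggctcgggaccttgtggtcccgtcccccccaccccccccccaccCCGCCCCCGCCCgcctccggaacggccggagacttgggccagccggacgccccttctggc
Npr2: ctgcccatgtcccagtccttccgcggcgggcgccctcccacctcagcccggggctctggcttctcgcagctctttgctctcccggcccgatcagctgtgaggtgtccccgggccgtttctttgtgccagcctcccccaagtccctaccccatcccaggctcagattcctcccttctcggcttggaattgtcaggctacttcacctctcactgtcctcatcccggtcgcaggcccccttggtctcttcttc
Vipr1: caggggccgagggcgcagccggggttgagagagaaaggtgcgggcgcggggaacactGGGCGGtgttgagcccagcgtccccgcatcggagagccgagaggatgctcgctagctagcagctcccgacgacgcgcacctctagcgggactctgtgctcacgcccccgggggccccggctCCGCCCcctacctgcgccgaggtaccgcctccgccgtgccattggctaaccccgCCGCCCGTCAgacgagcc
Adm: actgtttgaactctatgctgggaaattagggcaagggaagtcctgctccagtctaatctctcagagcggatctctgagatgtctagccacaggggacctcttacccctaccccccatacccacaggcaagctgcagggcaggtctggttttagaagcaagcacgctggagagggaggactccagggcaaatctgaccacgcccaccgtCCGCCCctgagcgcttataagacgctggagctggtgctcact
The Vipr1 window held 3 GC boxes, the last of which shared a base with a CGTCA core starting 13 bases upstream of the start site. The Npr1 window held 2 adjoining GC boxes, the Adm window 1, and the Ramp1 and Npr2 windows neither motif. Of the 9 genes with a promoter in the table, 6 had a GC box and 2 the cAMP core, against 32.7% and 17.8% of all 32851 promoter windows. The hypoxia response core (ACGTG or CACGT) and the AP-1 site (TGANTCA) were in 0 of the 9, against 16.6% and 6.75% of all windows. These matches describe letters in the windows only.

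Levels were compared between genes per length, as CPM per kilobase of exon in the GENCODE M21 annotation. Npr1 was highest, at 61.6 ± 10.04 CPM per kb (SD over 12 libraries), followed by Ramp2 at 43.1 ± 7.39, Ramp1 at 34.0 ± 8.39, Calcrl at 25.5 ± 4.10 and Npr2 at 20.9 ± 3.11 CPM per kb. Adm stood at 9.58 ± 3.88, Npr3 at 7.91 ± 3.27, Vipr2 at 4.65 ± 1.35 and Vipr1 at 1.54 ± 0.753 CPM per kb. The signalling natriuretic receptor Npr1 was above the clearance receptor Npr3 on this scale in every group. Neighbours in the order were not all apart. Ramp2 was above Ramp1 in 10 of 12 libraries, Ramp1 above Calcrl in 9, Calcrl above Npr2 in 9, Adm above Npr3 in 8 and Npr3 above Vipr2 in 9, while Vipr2 was above Vipr1 in 12 of 12. Of the partners for adrenomedullin, Ramp3 was far below Ramp2, at 0.160 ± 0.199 CPM per kb. Short exon stretches on the opposite strand of another gene overlap Npr1 (9.89% of its exon length), Ramp3 (7.62%), Npr3 (3.77%) and Npr2 (1.58%), and whether counting used strand is not given in the sources used here.

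**Figure D1:**
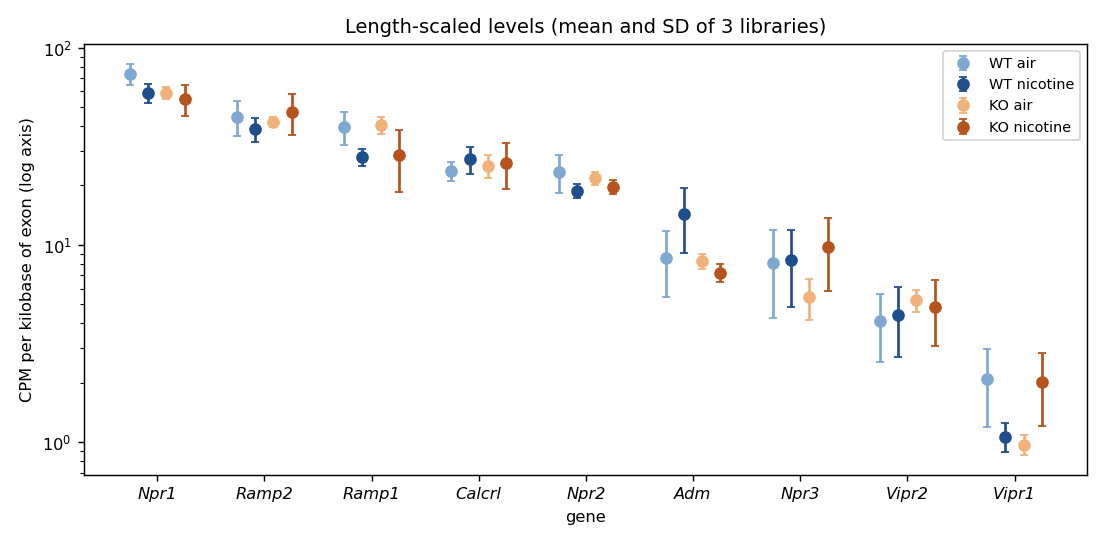
Length-scaled level of the 9 tested genes (vertical axis, CPM per kilobase of exon, log axis) by gene (horizontal axis) and group, with points for the mean and bars for the SD of 3 libraries. Npr1 is highest in every group and Vipr1 lowest, between 0.970 and 2.09 CPM per kb.

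Peptide genes other than Adm were nearly absent from the aorta's RNA. Adm had 1859 counts over the 12 libraries. Nppa, encoding atrial natriuretic peptide, had 15 counts in all, Calca and Calcb, encoding calcitonin gene-related peptides, 13 each, and Ostn, encoding the Npr3 ligand osteocrin, 11. Nppb had 10 counts, Vip 8, Adcyap1 8, Nppc 4, Adm2 3 and Iapp 0, which allows up to 3 counts. Within this system, the ligand measured in aortic RNA was adrenomedullin, and none of the 10 other ligand genes had enough counts to be tested.

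Adm was highest in WT nicotine. Its level was 7.05, 13.3 and 15.4 CPM in WT air 8, 9 and 10 and 20.3, 26.7 and 12.5 CPM in WT nicotine 6, 11 and 12. It was 10.3, 12.1 and 12.0 CPM in KO air 1, 2 and 7 and 8.89, 10.3 and 10.9 CPM in KO nicotine 3, 4 and 5. WT nicotine 6 and 11 lay above the other 10 libraries, WT nicotine 12 lay within the WT air range, and the KO groups overlapped. The mean was 19.8 ± 7.14 CPM in WT nicotine, against 11.9 ± 4.34 CPM in WT air, and in KO it was 11.5 ± 1.02 CPM without and 10.04 ± 1.05 CPM with nicotine (SD, n = 3 each). The log2 fold change with nicotine was 0.73 ± 0.29 (SE) in WT, an edgeR adjusted p of 0.433, and -0.19 ± 0.29 in KO, an edgeR adjusted p of 0.924. In nicotine, all 3 KO libraries lay below all 3 WT libraries, a log2 difference of -0.98 ± 0.29 (edgeR adjusted p = 0.448). Without WT nicotine 11, the nicotine value in WT was 0.48 and the KO against WT value in nicotine -0.71.

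Sums of 5 other gene lists also had their highest group mean in WT nicotine. The 15 immediate early genes (Fos, Fosb and others), which cells switch on quickly after a stimulus, summed to 2419 to 4683 CPM in WT nicotine, against 917 to 3352 CPM in WT air, and to 1614 to 3544 CPM without and 1617 to 3569 CPM with nicotine in KO, and 15 of 15 had a log2 fold change above 0 with nicotine in WT. The 11 macrophage markers found in the table (Mrc1, Csf1r and others) summed to 526 to 728 CPM in WT nicotine, 327 to 352 CPM in WT air, 342 to 533 CPM in KO air and 376 to 717 CPM in KO nicotine, and 11 of 11 were above 0 with nicotine in WT. Within nicotine, 15 of 15 immediate early genes and 10 of 11 macrophage markers were below 0 in KO against WT. The 10 fibroblast markers (Pdgfra, Dcn and others) summed to 10461 to 12431 CPM in WT nicotine and to 8362 to 10411 CPM in WT air, with 7857 to 10994 CPM without and 7987 to 10167 CPM with nicotine in KO. All 10 were above 0 with nicotine in WT and below 0 in KO against WT within nicotine. The 7 neutrophil markers (S100a8, S100a9 and others) summed to 21.5 to 84.8 CPM in WT nicotine, 8.88 to 35.5 CPM in WT air and 11.7 to 18.2 CPM over the 6 KO libraries, and the 6 tested had the same directions as the fibroblast markers. The 7 lymphatic endothelial markers (Prox1, Flt4 and others) summed to 125 to 203 CPM in WT nicotine, 81.3 to 96.6 CPM in WT air, and 83.2 to 146 CPM in KO. Of the 6 tested, 6 were above 0 with nicotine in WT and 4 below 0 in KO against WT within nicotine. No marker of these 5 lists had a total of 0 counts over the 12 libraries, and their part in the Adm values was not tested. The 14 genes of the hypoxia response, a known inducer of adrenomedullin, had a median log2 fold change of 0.03 with nicotine in WT, against -0.00 over all 14621 tested genes, and 9 were above 0. Hif1a, its central factor, stood at 217 ± 9.06 CPM without and 221 ± 16.6 CPM with nicotine in WT (n = 3 each). Within nicotine it was at 160, 177 and 206 CPM in KO 3, 4 and 5. WT 6, 11 and 12 were at 219, 206 and 239 CPM. There, 7 of the 14 genes were above 0 in KO against WT, with a median of 0.01. At an edgeR unadjusted p under 0.05, Hif1a and Ddit4 were lower and Car9 higher, against 4.06% and 4.29% of all tested genes. With nicotine in WT, Ddit4 alone was at that level, higher, against 5.43%. The part of these genes in the Adm values was not tested. Pfkfb3, which drives glycolysis, had a log2 fold change of 0.87 ± 0.42 in WT and 0.73 ± 0.42 in KO, Ankrd37 of -0.92 ± 0.59 in WT and the mitophagy gene Bnip3 of 0.67 ± 0.32 in KO. No gene of the hypoxia list passed the edgeR threshold.

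Calcrl, the shared receptor subunit, overlapped between all groups. It stood at 129, 104 and 113 CPM in WT air 8, 9 and 10, 157, 121 and 120 CPM in WT nicotine 6, 11 and 12, 141, 117 and 110 CPM in KO air 1, 2 and 7, and 95.3, 124 and 162 CPM in KO nicotine 3, 4 and 5. The 3 libraries of KO nicotine held both the lowest and the highest library. Log2 fold changes with nicotine were 0.20 ± 0.18 in WT and 0.05 ± 0.18 in KO, and with single libraries left out they ran from 0.07 to 0.31 and from -0.16 to 0.23.

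Ramp1, the partner that makes the receptor for calcitonin gene-related peptide, had a lower mean with nicotine in both genotypes, though neither difference passed the test. It stood at 94.3, 124 and 139 CPM in WT air 8, 9 and 10 and at 87.5, 74.4 and 89.8 CPM in WT nicotine 6, 11 and 12. In KO it stood at 129, 108 and 129 CPM in air 1, 2 and 7 and at 67.5, 70.0 and 120 CPM in nicotine 3, 4 and 5. Each WT nicotine library lay below each WT air library, whereas KO nicotine 5 lay within the KO air range. Means were 119 ± 22.6 and 83.9 ± 8.32 CPM in WT, and 122 ± 12.4 and 85.8 ± 29.5 CPM in KO (SD, n = 3 each). The log2 fold change was -0.51 ± 0.21 in WT (edgeR adjusted p = 0.457) and -0.51 ± 0.21 in KO (edgeR adjusted p = 0.878). Averaged over genotypes it was -0.51 ± 0.15, with an edgeR adjusted p of 0.332, and leaving out single libraries moved it between -0.66 and -0.43. Without KO nicotine 5 the KO value was -0.83. The difference between genotypes was -0.00 ± 0.29. The values in the authors' deposited table were -0.50 ± 0.19 in WT (adjusted p = 0.308) and -0.51 ± 0.24 in KO (adjusted p = 0.997).

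Smooth muscle markers were highest and lowest in much the same libraries as Ramp1. The 10 markers summed to 35351, 53425 and 47854 CPM in WT air 8, 9 and 10 and to 32498, 32169 and 36943 CPM in WT nicotine 6, 11 and 12. In KO they summed to 44473, 36988 and 44099 CPM in air 1, 2 and 7 and to 26467, 28644 and 43278 CPM in nicotine 3, 4 and 5. All 10 had a log2 fold change below 0 with nicotine in each genotype, with medians of -0.46 in WT and -0.37 in KO, though none was called. The 3 genes most like Ramp1 over the 12 libraries, by Pearson r of log2 CPM, were Acta2 (r = 0.967), Kcnmb1 (0.960) and Mylk (0.958), and Acta2 and Mylk are on the smooth muscle list. Per 1000 CPM of smooth muscle markers, Ramp1 was at 2.63 ± 0.285 CPM in WT air and 2.48 ± 0.196 in WT nicotine, where the libraries overlapped. It was at 2.92 ± 0.00924 in KO air and 2.59 ± 0.166 in KO nicotine, where they did not (SD, n = 3 each). The share of other genes that separate on this scale was not counted. What part the smooth muscle content has in the Ramp1 values was not tested. In RNA of whole tissue, fewer cells of a type and less RNA per cell cannot be told apart.

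**Figure D2:**
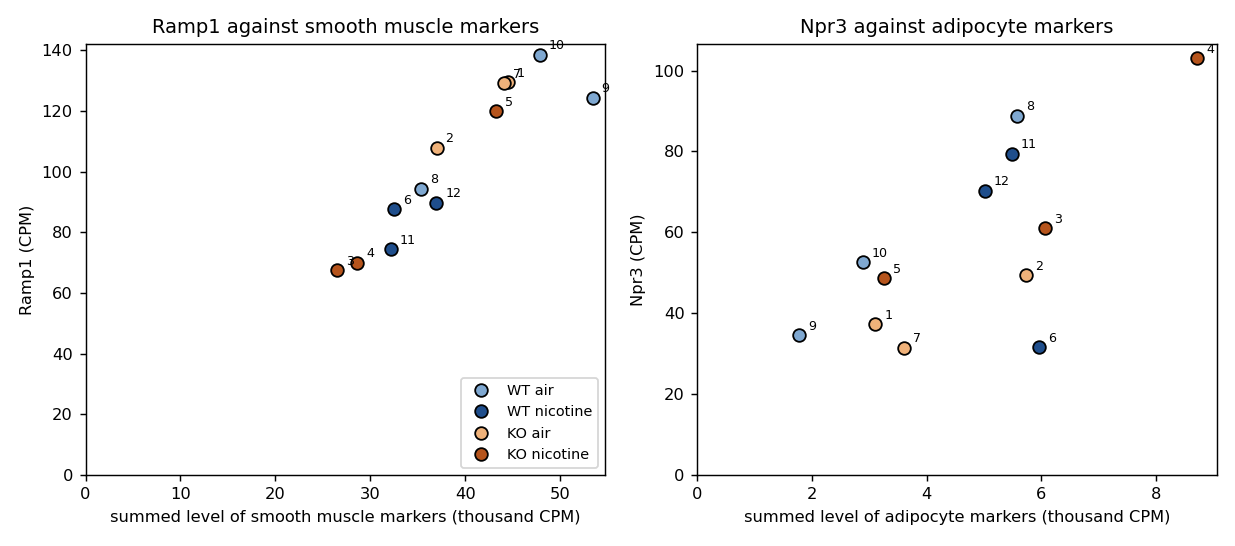
Left, Ramp1 level (CPM) against the summed level of 10 smooth muscle markers, and right, Npr3 level against that of 12 adipocyte markers (axes in units of 1000 CPM), with a point per library, coloured by group and numbered as in the labels. Ramp1 lies between 67.5 and 139 CPM over smooth muscle sums from 26467 to 53425 CPM, and Npr3 lies between 31.5 and 103 CPM over adipocyte sums from 1781 to 8714 CPM, both highest in KO nicotine 4.

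Ramp2, the partner that makes the main vascular adrenomedullin receptor, overlapped between all groups. It stood at 45.5, 60.0 and 68.9 CPM in WT air 8, 9 and 10, 57.3, 49.5 and 43.6 CPM in WT nicotine 6, 11 and 12, 58.2, 52.6 and 53.1 CPM in KO air 1, 2 and 7, and 77.7, 56.2 and 50.3 CPM in KO nicotine 3, 4 and 5. KO nicotine 3 was the highest library and WT nicotine 12 the lowest. Log2 fold changes with nicotine were -0.21 ± 0.18 in WT and 0.17 ± 0.18 in KO. The WT value was -0.06 without WT air 10 and -0.34 without WT air 8, and the KO value -0.03 without KO nicotine 3. The 12 endothelial markers (Pecam1, Cdh5 and others), whose cell type is known for Calcrl and Ramp2, summed to 1285 to 1491 CPM in WT air, 1161 to 1861 in WT nicotine, 1298 to 1598 in KO air and 1498 to 1782 in KO nicotine.

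The ratio of Ramp1 to Ramp2 within a library does not depend on how libraries are scaled. Its log2 value was 1.05, 1.05 and 1.01 in WT air 8, 9 and 10, 0.61, 0.59 and 1.04 in WT nicotine 6, 11 and 12, 1.15, 1.04 and 1.28 in KO air 1, 2 and 7, and -0.20, 0.32 and 1.25 in KO nicotine 3, 4 and 5. In each genotype, 2 nicotine libraries lay below all air libraries of that genotype and the other lay within their range. The KO nicotine mean was 0.46 ± 0.74 (SD, n = 3), and 0.06 without KO nicotine 5. Ramp2 counts outnumbered Ramp1 counts in KO nicotine 3 alone among the 12 libraries. No test was made of the ratios.

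Ramp3 was close to undetected. WT air 8, 9 and 10 held 9, 3 and 1 counts, WT nicotine 6, 11 and 12 held 3, 2 and 1, and KO nicotine 3, 4 and 5 held 6, 0 and 2. It had 0 counts in each KO air library, which allows up to 3 counts over the group, or 0.0843 CPM. At these counts a difference between groups was not detectable. The log2 ratio of Ramp3 to Ramp2 was left out because 4 libraries were at 0.

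Vipr1, encoding the VIP receptor VPAC1, had the largest contrast between genotypes among the 9 tested genes. It stood at 6.35, 9.39 and 14.9 CPM in WT air 8, 9 and 10 and at 4.52, 4.95 and 6.21 CPM in WT nicotine 6, 11 and 12. In KO the order was the opposite, with 5.02, 5.13 and 4.13 CPM in air 1, 2 and 7 and 13.9, 5.91 and 9.95 CPM in nicotine 3, 4 and 5. Each WT nicotine library lay below each WT air library and each KO nicotine library above each KO air library, although the gaps were small: 6.21 against 6.35 CPM in WT, and 5.91 against 5.13 CPM in KO. The counts behind these values were 46 to 185 per library.

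Neither nicotine effect on Vipr1 passed the threshold. The means were 10.2 ± 4.34 and 5.23 ± 0.875 CPM in WT, a log2 fold change of -0.97 ± 0.34 with an edgeR adjusted p of 0.404. In KO they were 4.76 ± 0.548 and 9.93 ± 4.01 CPM, a log2 fold change of 1.06 ± 0.34 with an edgeR adjusted p of 0.878. The difference between the genotypes was 2.03 ± 0.48 (edgeR adjusted p = 0.925, DESeq2 adjusted p = 0.0800), and it ran from 1.64 to 2.29 with single libraries left out. Without WT air 10 the WT value was -0.58, and without KO nicotine 3 the KO value was 0.75. KO against WT was -1.10 ± 0.34 in air and 0.92 ± 0.34 in nicotine, from the same libraries as the nicotine effects, and these were -0.73 without WT air 10 and 0.61 without KO nicotine 3. KO nicotine 3, the highest Vipr1 library in KO, was also the one with 2390 CPM of hepatocyte markers and 209 CPM of skeletal muscle markers (Acta1, Mylpf and others, with Tnnc2 at 0 counts), which were at 8.74 to 45.2 CPM in the other libraries. Their part in the Vipr1 values was not tested. WT air 10, the highest of all, had hepatocyte markers at 120 CPM and skeletal muscle markers at 10.6 CPM. The authors' deposited table gave -0.96 ± 0.36 in WT (adjusted p = 0.277) and 1.06 ± 0.36 in KO (adjusted p = 0.700). The genes most like Vipr1 over the 12 libraries were Zfp729a (r = 0.898), Rasl10b (0.884) and Zbtb7c (0.855).

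Vipr2, encoding VPAC2, showed no such pattern. It ranged from 8.44 to 18.9 CPM in WT air, 8.90 to 20.4 in WT nicotine, 15.2 to 19.8 in KO air and 9.80 to 21.6 in KO nicotine. All 4 groups overlapped, and the log2 fold changes with nicotine were 0.09 ± 0.36 in WT and -0.11 ± 0.35 in KO. Both turned sign with single libraries left out, running from -0.18 to 0.39 and from -0.36 to 0.16. Of the related receptors, the secretin receptor gene Sctr was at 1.02 ± 1.04 CPM without and 2.12 ± 0.646 CPM with nicotine in WT (log2 fold change 1.05 ± 0.69), and at 0.874 ± 0.526 and 1.99 ± 0.682 CPM in KO (1.18 ± 0.70). Libraries stood in the same order by Sctr as by the summed adipocyte markers in each group but WT nicotine, and the part of fat in the Sctr values was not tested. Ackr3, a scavenger receptor for adrenomedullin and chemokines, was at 57.0 ± 8.502 and 82.8 ± 28.8 CPM in WT (0.54 ± 0.27). Adcyap1r1, the receptor for the VIP relative PACAP, was at 6.45 ± 1.45 and 8.94 ± 3.29 CPM in KO (0.47 ± 0.36). KO nicotine 3, the library highest in hepatocyte and skeletal muscle markers, was at 12.7 CPM. KO nicotine 4 and 5, at 6.96 and 7.12 CPM, lay within the KO air range. Of the 5 tested receptors of this list, 2 were above 0 with nicotine in WT and 3 in KO, and none passed the edgeR threshold in any comparison.

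**Figure D3:**
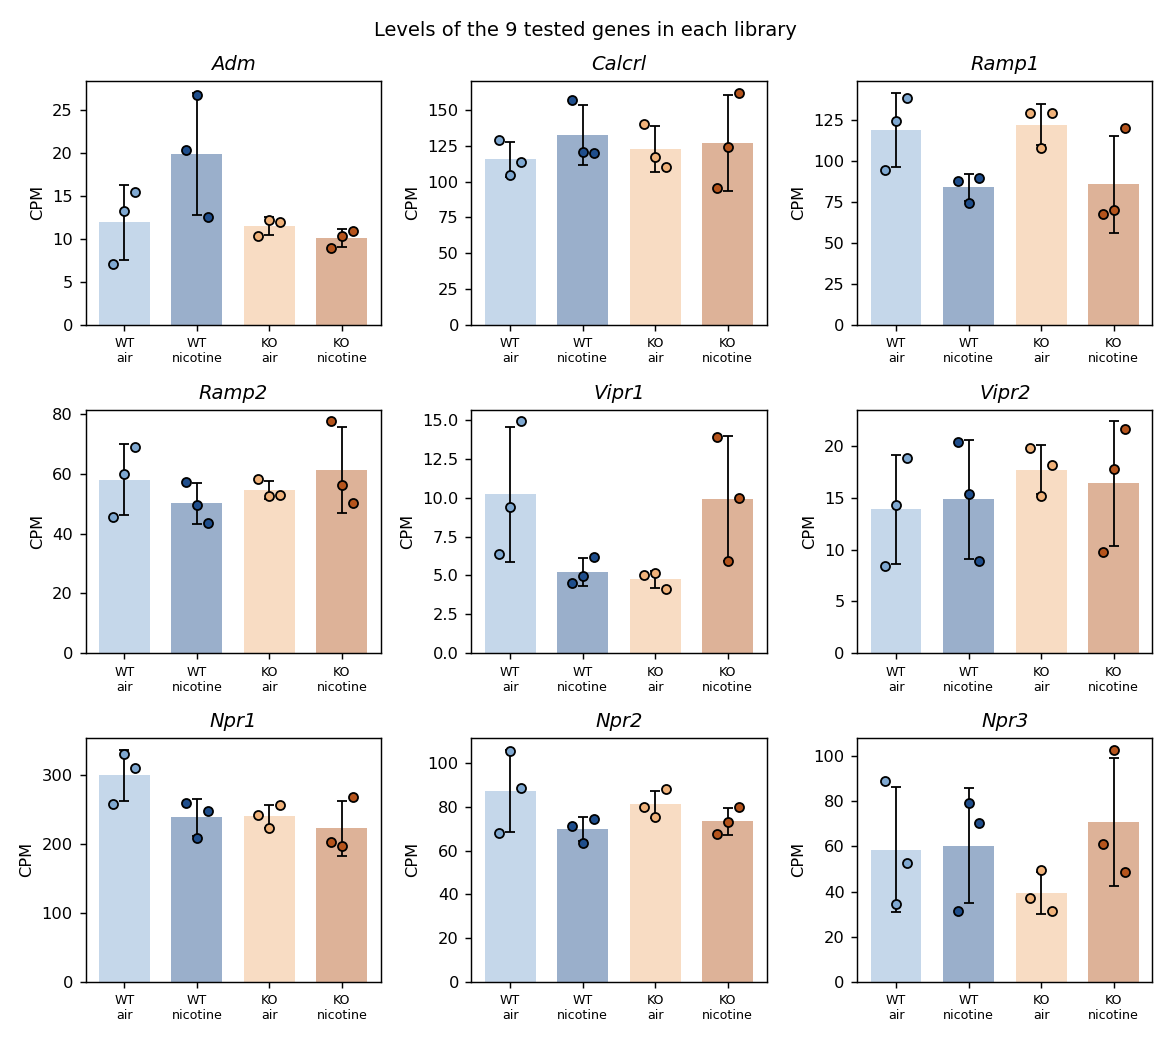
Level of each of the 9 tested genes (vertical axes, CPM) in the 4 groups (horizontal axes). Points are libraries, bars the mean and whiskers the SD of 3 libraries. Vipr1 is between 4.13 and 6.21 CPM in WT nicotine and KO air and between 5.91 and 14.9 CPM in WT air and KO nicotine.

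Npr1, the receptor for atrial and brain natriuretic peptides, was highest in WT air. It stood at 258, 331 and 311 CPM in WT air 8, 9 and 10, 260, 209 and 247 CPM in WT nicotine 6, 11 and 12, 242, 223 and 256 CPM in KO air 1, 2 and 7, and 202, 197 and 269 CPM in KO nicotine 3, 4 and 5. WT air 9 and 10 lay above every other library, while WT air 8 lay just below WT nicotine 6 and just above the highest KO air library. The log2 fold change with nicotine was -0.33 ± 0.15 in WT (edgeR adjusted p = 0.497) and -0.11 ± 0.15 in KO (edgeR adjusted p = 0.910). KO air was below WT air without overlap, a log2 difference of -0.32 ± 0.15 (edgeR adjusted p = 0.995).

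Npr2, the receptor for C-type natriuretic peptide, was lowest in WT nicotine by its mean. It ranged from 67.9 to 106 CPM in WT air, 63.6 to 74.6 in WT nicotine, 75.5 to 88.0 in KO air and 67.6 to 79.8 in KO nicotine, with each nicotine group overlapping its air group. The log2 fold change was -0.32 ± 0.15 in WT (edgeR adjusted p = 0.501), -0.14 ± 0.15 in KO, and -0.23 ± 0.10 averaged over genotypes (edgeR adjusted p = 0.440). Without WT air 9 the WT value was -0.16. Npr1, Npr2 and Ramp1 varied together over the 12 libraries, with Pearson r of 0.782 for Npr1 with Npr2, 0.778 for Ramp1 with Npr2 and 0.775 for Ramp1 with Npr1, libraries that share their groups and tissue content. Per 1000 CPM of smooth muscle markers, Npr1 was at 6.66 ± 0.581 CPM without and 7.06 ± 0.814 CPM with nicotine in WT, and Npr2 at 1.92 ± 0.0633 and 2.06 ± 0.115 CPM (SD, n = 3 each), so on that scale the nicotine means were the higher ones. In KO, Npr1 was at 5.76 ± 0.294 CPM without and 6.91 ± 0.713 CPM with nicotine, where the libraries did not overlap, and Npr2 at 1.94 ± 0.131 and 2.32 ± 0.409 CPM, where they did. As for Ramp1, the share of other genes that separate on this scale was not counted. The markers' part in the Npr1 and Npr2 values was not tested.

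Npr3, the clearance receptor, varied widely inside groups. It stood at 88.9, 34.5 and 52.6 CPM in WT air 8, 9 and 10 and 31.6, 79.4 and 70.3 CPM in WT nicotine 6, 11 and 12. In KO it stood at 37.2, 49.4 and 31.5 CPM in air 1, 2 and 7 and 61.0, 103 and 48.6 CPM in nicotine 3, 4 and 5. The WT groups overlapped over most of their ranges, and in KO the lowest nicotine library was just under the highest air library. The log2 fold change was 0.05 ± 0.43 in WT and 0.85 ± 0.44 in KO (edgeR adjusted p = 0.878), and 0.48 in KO without KO nicotine 4. The WT value was -0.22 without WT air 9 and 0.50 without WT air 8. The authors' deposited table gave 0.85 ± 0.29 in KO (adjusted p = 0.731). The 12 adipocyte markers summed to 3100, 5730 and 3612 CPM in KO air 1, 2 and 7 and 6070, 8714 and 3262 CPM in KO nicotine 3, 4 and 5, and 12 of 12 were above 0 with nicotine in KO. In WT they summed to 1781 to 5570 CPM in air and 5008 to 5954 CPM in nicotine, and 11 of 12 were above 0. The 7 brown fat markers (Ucp1, Cidea and others) summed to 1879, 378 and 751 CPM in WT air 8, 9 and 10 and to 1039, 1245 and 1197 CPM in WT nicotine 6, 11 and 12. In KO they summed to 866, 1799 and 875 CPM in air 1, 2 and 7 and to 1726, 2154 and 1161 CPM in nicotine 3, 4 and 5. Libraries stood in the same order by the brown fat sum as by Npr3 in each group but KO air, where the lower 2 changed places. With nicotine 6 of 7 were above 0 in each genotype, with medians of 0.48 in WT and 0.51 in KO. No marker of either fat list had a total of 0 counts over the 12 libraries, and their part in the Npr3 values was not tested. The genes most like Npr3 were Mcur1 (r = 0.954), Idh2 (0.948) and P2rx5 (0.933).

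The 2 ratios of natriuretic receptors differed in how steady they were. The log2 ratio of Npr3 to Npr1 ran from -3.26 to -1.54 in WT air, -3.04 to -1.39 in WT nicotine, -3.03 to -2.17 in KO air and -2.47 to -0.94 in KO nicotine. The log2 ratio of Npr2 to Npr1 stayed between -1.93 and -1.43 over all 12 libraries. It was -1.80 ± 0.14 in WT air and -1.57 ± 0.03 in KO air (SD, n = 3 each), where each KO library lay above each WT library, and -1.77 ± 0.08 and -1.59 ± 0.16 in WT and KO nicotine, which overlapped.

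**Figure D4:**
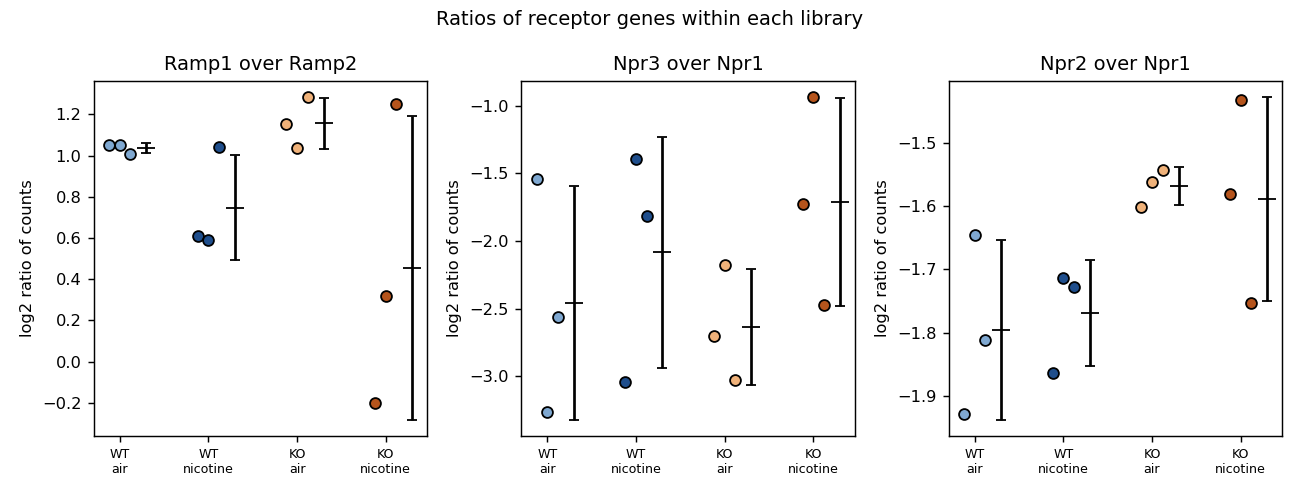
Log2 ratio of counts within a library (vertical axes) for Ramp1 over Ramp2, Npr3 over Npr1 and Npr2 over Npr1 in the 4 groups (horizontal axes). Points are libraries, and the dash and whiskers beside them the mean and SD of 3. The Ramp1 to Ramp2 ratio spans 1.01 to 1.05 in WT air and -0.20 to 1.25 in KO nicotine.

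Counted over the 9 tested genes, nicotine in WT called 0 by edgeR at an adjusted p under 0.05, where 0.0205% of all 14621 tested genes were called. At an unadjusted p under 0.05, 1 was higher (Adm) and 4 lower (Ramp1, Vipr1, Npr1 and Npr2), against 5.43% and 4.41% of all tested genes, which is 5 of 9 beside 9.84% in either direction. DESeq2 and limma voom also called 0 of the 9, with 4 at an unadjusted p under 0.05 each. Groups did not overlap for 2 of the 9, both lower (Ramp1 and Vipr1), against 6.05% of all genes for lower, and for 0 higher, against 7.13%. The median log2 fold change was -0.21, beside -0.00 for all tested genes.

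Nicotine in KO called 0 of the 9 by edgeR, where 0% of all tested genes were called, and 0 by DESeq2 and limma voom. At an unadjusted p under 0.05, edgeR had 1 higher (Vipr1) and 1 lower (Ramp1), against 2.48% and 2.1% of all genes, or 2 of 9 beside 4.58% in either direction. DESeq2 had 3 in all and limma voom 2. Only Vipr1 of the 9 did not overlap, and was higher, as were 5.13% of all tested genes, and 0 were lower without overlap, against 5.55%. The median of the 9 was -0.11, beside 0.01 for all tested genes.

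The interaction of nicotine and genotype, which bears on the study's question of whether the receptor mediates nicotine's effects, called 0 of the 9 by edgeR, where 0% of all genes were called, and 0 by DESeq2 and limma voom. Vipr1 was above 0 and Adm below it at an unadjusted p under 0.05, against 1.85% and 2.58% of all tested genes, or 2 of 9 beside 4.43% in either direction. DESeq2 had 2 at that level and limma voom 1. Adm had an interaction of -0.92 ± 0.41 (edgeR adjusted p = 0.999). The other 7 genes lay between -0.21 ± 0.50 (Vipr2) and 0.80 ± 0.61 (Npr3).

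KO against WT in air called 0 of the 9 by edgeR, where 0% of all genes were called. Vipr1 and Npr1 were lower at an unadjusted p under 0.05, against 2.12% of all tested genes, and 0 higher, against 2.24%, which is 2 of 9 beside 4.36%. The same 2 genes were lower without overlap, against 6.06%, and 0 were higher, against 5.74%. DESeq2 had 2 at that level and limma voom 1, with 0 called by either. KO against WT in nicotine called 0 of the 9 by edgeR, where 0.00684% of all genes were called. Vipr1 was higher and Adm lower at an unadjusted p under 0.05, against 4.29% and 4.06% of all tested genes, or 2 of 9 beside 8.34%, with 2 each by DESeq2 and limma voom and 0 called. Only Adm did not overlap, and was lower, as were 5.59% of all genes, and 0 were higher, against 5.8%. These comparisons share libraries with the nicotine effects above. Averaged over genotypes, nicotine called 0 of the 9, where 0% of all genes were called. Ramp1 and Npr2 were lower at an unadjusted p under 0.05, against 5.33% of all genes, and 0 were higher, against 5.62%, which is 2 of 9 beside 10.9%. DESeq2 had 1 at that level and limma voom 2, and both called 0.

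**Figure D5:**
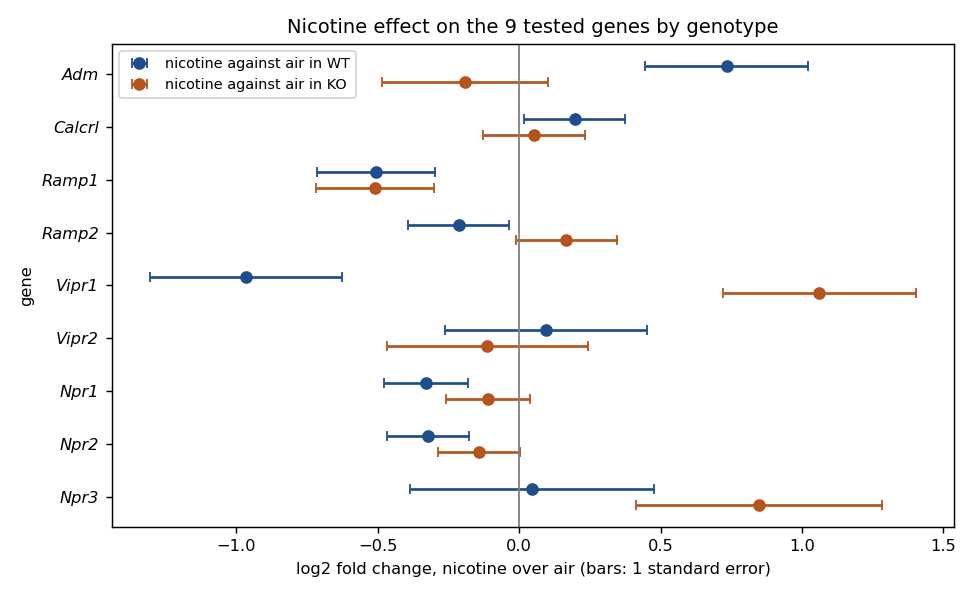
Log2 fold change of nicotine over air (horizontal axis) for each of the 9 tested genes (vertical axis), with blue points for WT, orange points for KO and bars of 1 standard error. Ramp1 lies at -0.51 in both genotypes, and Vipr1 at -0.97 in WT and 1.06 in KO.

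The arms downstream of these receptors were followed on lists of other genes. The cGMP arm, which carries natriuretic peptide and nitric oxide signals, had 14 tested genes, none of them past the edgeR threshold in any comparison. With nicotine, 3 of 14 were above 0 in each genotype, with medians of -0.31 in WT and -0.28 in KO, beside -0.00 and 0.01 for all tested genes. At an edgeR unadjusted p under 0.05, 1 was higher and 2 lower in each genotype. The shares of all tested genes were 5.43% and 4.41% in WT and 2.48% and 2.1% in KO. For nicotine averaged over genotypes, 1 was higher and 5 lower, against 5.62% and 5.33%. Pde2a, a cGMP-stimulated phosphodiesterase, stood at 14.6 ± 7.37 CPM without and 29.8 ± 7.88 CPM with nicotine in WT (n = 3 each), a log2 fold change of 1.02 ± 0.45, with each nicotine library above each air library. Pde9a, a cGMP-specific phosphodiesterase, was at 3.70 ± 1.07 and 2.32 ± 0.276 CPM in KO (-0.67 ± 0.38), and the scarce kinase gene Prkg2 at -0.72 ± 0.85 in WT and -0.68 ± 0.85 in KO. The smooth muscle markers given above for Ramp1 were below 0 in the same comparisons, and their part in the values of the cGMP arm was not tested. Libraries stood in the same order by Pde2a as by the adipocyte sum in each group. Adipocyte markers had a median log2 fold change of 0.72 with nicotine in WT, and their part in the Pde2a values was not tested.

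The cAMP arm, which carries adrenomedullin and VIP signals, had 29 tested genes and none past the edgeR threshold in any comparison. With nicotine, 16 of 29 were above 0 in WT and 19 in KO, with medians of 0.02 and 0.14. At an edgeR unadjusted p under 0.05, nicotine in WT had 2 higher (Crem and Akap12) and 3 lower. The shares of all tested genes were 5.43% and 4.41%. Nicotine in KO had 2 higher and 0 lower at that level, against 2.48% and 2.1%. The interaction had Crem and Akap12 below 0 and 0 genes above it, against 2.58% and 1.85%. Pde4a, a cAMP-specific phosphodiesterase, stood at 57.3 ± 17.8 CPM without and 30.6 ± 7.20 CPM with nicotine in WT (n = 3 each), a log2 fold change of -0.90 ± 0.25 with little between the groups' nearest libraries (39.1 and 38.7 CPM) (edgeR adjusted p = 0.278). Pde3b, a phosphodiesterase of fat cells, was at 146 ± 82.9 and 246 ± 24.3 CPM in WT (0.75 ± 0.42), where adipocyte markers had a median of 0.72. In KO, the scarce Pde4c was at 0.424 ± 0.230 and 1.66 ± 0.905 CPM (1.94 ± 0.87). Rapgef4, a cAMP-activated exchange factor, had means of 2.49 ± 0.628 and 4.75 ± 3.97 CPM (0.92 ± 0.54). Both genes peaked in KO nicotine 3, where hepatocyte and skeletal muscle markers also peaked. Rapgef4 reached 9.16 CPM there and 3.62 CPM in library 4. Library 5, with 1.46 CPM, fell below the KO air range of 2.13 to 3.22 CPM. For Pde4c these libraries gave 2.66, 1.43 and 0.890 CPM, each above the highest KO air value of 0.684 CPM. What part those markers' tissues have in either gene's values was not tested.

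Among 12 tested genes that make or clear these peptides, none passed the edgeR threshold in any comparison. With nicotine, 6 of 12 were above 0 in WT and 7 in KO, with medians of 0.07 and 0.01. Cma1, a mast cell chymase, stood at 2.78 ± 1.13 CPM without and 6.29 ± 2.11 CPM with nicotine in WT (n = 3 each), a log2 fold change of 1.17 ± 0.42 with no overlap (edgeR adjusted p = 0.404), and at 0.72 ± 0.41 in KO. Corin, which activates atrial natriuretic peptide, was at 1.31 ± 1.28 and 0.528 ± 0.403 CPM in WT (-1.26 ± 0.99), with 1 to 37 counts per library. The 7 cardiac muscle markers (Myh6, Myl7 and others) summed to 34.0 to 205 CPM in WT air and 21.7 to 125 CPM in WT nicotine. In KO they summed to 27.7 to 475 CPM in air and 73.2 to 138 CPM in nicotine. Within each group, the order of libraries was the same by this sum and by Corin. KO air 2, the highest by both, also held 8 of the 10 Nppb counts. The part of cardiac tissue in the Corin and Nppb values was not tested. Mme, encoding neprilysin, which degrades natriuretic peptides and adrenomedullin, was at 74.8 ± 21.02 and 100 ± 53.8 CPM in KO (0.42 ± 0.49). Libraries stood in the same order by Mme as by the adipocyte sum in each group but WT nicotine. Adipocyte markers had a median log2 fold change of 0.55 with nicotine in KO, and their part in the Mme values was not tested.

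Patterns over the 12 libraries were also compared for the other tested genes, by Pearson r of log2 CPM as a description. Adm was most like Eif2ak4 (r = 0.943), Tmcc3 (0.912) and Nfe2l2 (0.882), Calcrl most like Itga11 (0.926), Npas2 (0.880) and Fbxo34 (0.863), and Ramp2 most like Paxip1 (0.912), Ninj1 (0.911) and Atp2b2 (0.891). Vipr2 was most like Tnrc6b (0.894), Rbm43 (0.875) and Cc2d2a (0.858). Npr1 was most like Plekha3 (0.952), Aplp1 (0.947) and Myadm (0.939), and Npr2 most like Marveld1 (0.949), Sf3b2 (0.948) and Cds2 (0.936). Highest-over-lowest library ratios were 3.79 for Adm, 3.62 for Vipr1, 3.27 for Npr3, 2.56 for Vipr2 and 2.05 for Ramp1, and 1.66 to 1.78 for Npr2, Npr1, Calcrl and Ramp2.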

How the data were processed

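RNA from frozen thoracic aortas was isolated with the RNeasy Plus kit and made into SMART-Seq v4 libraries, per the labels' protocols. The authors deposited raw counts per gene symbol, made with HTSeq on mouse build mm9 per the submitters' processing notes. The aligner, annotation and strand setting were not given in the sources used here. Per the file headers, the authors also deposited tables of nicotine against air holding a mean normalized signal, log2 fold changes with standard errors, a test score, and unadjusted and adjusted p-values.

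Libraries were grouped by their titles. Libraries of a group differed by a chi-square of 8.79 to 74.8 per degree of freedom, so none repeat another within counting noise. No batch is labelled. Of 27933 genes, 14621 passed filterByExpr and entered a robust quasi-likelihood fit in edgeR 4.0.16 on all 12 libraries (4 group means, TMM scaling, 8 residual degrees of freedom, Benjamini-Hochberg over all tested genes, called at 0.05). A standard error is the size of the log2 fold change divided by the root of its F statistic. The fit was tested on simulated data. DESeq2 1.42.0, limma 3.58.1 voom, other scaling, no filter, only the compared groups, and leaving out each library were alternatives. The 10 genes and all lists were chosen with earlier results of these data known. The named genes are these 10, Chrna7, list genes past the threshold, the 2 of each list with the largest nicotine effect in each genotype, every ligand with counts, the first 2 markers of each cell type list used, and the 3 genes of at least 5 CPM most like each member. Genes named beyond this rule (Hif1a, Ddit4, Car9, Crem and Akap12) were chosen after values were seen, as were the levels per marker level. Tables and figures were made in Python 3.11.15 (matplotlib 3.10.9, numpy 2.4.6, pandas 2.3.3), and models in R 4.3.3. At library totals of 10240031 to 12628323 counts, Ramp3, Vipr1, Adm and Vipr2 had the fewest counts of the 10 genes.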

Additional observations from a re-analysis of the deposited data

How the results depend on the processing

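The number of genes called depended on the test far more than the values of the 9 genes did. Nicotine in WT called 3 genes by edgeR, 115 with DESeq2, 7 with DESeq2 size factors, 21 with no filter on low counts and 0 with only the groups compared, and 0 to 34 with single libraries left out. The interaction called 0 by edgeR, 9 with DESeq2 and 1 with no filter, and 0 to 1 with single libraries left out. KO against WT in air called 0, 13 with DESeq2 and 2 with only the groups compared. KO against WT in nicotine called 1, 87 with DESeq2, 6 with DESeq2 size factors, 7 with no filter and 5 with limma voom, and 0 to 4 with single libraries left out. Nicotine averaged over genotypes called 0, 96 with DESeq2 and 6 with no filter, and 0 to 38 with single libraries left out. Nicotine in KO called 0 under each alternative run, where edgeR had 669 genes at an unadjusted p under 0.05. The count for nicotine in WT went to 34 when WT air 8 was left out, to 14 without WT nicotine 12, to 1 for WT nicotine 6 and to 0 for either WT air 9 or WT nicotine 11. For the average it was 38 without WT air 8, 4 without WT air 10, and 3 without WT nicotine 12 or KO nicotine 5. For KO against WT in nicotine it was 4 without WT nicotine 12, 2 without KO nicotine 3, and 0 without KO nicotine 4 or 5, and the 1 interaction call came without WT nicotine 12 or KO nicotine 3. The cause of these differences was not tested. None of the 9 genes was called under any alternative run, and all 252 of their log2 fold changes under other tools, scaling, filters or groups stayed within 1 standard error of the values given. With 1 library left out, 416 of 432 did and 16 moved further. The lowest adjusted p was 0.0506, for Ramp1 averaged over genotypes without KO nicotine 5. With 3 libraries in a group, leaving 1 out cannot move a mean by 1 SD, so the receptor ratios have no such check. Their values for KO nicotine ran from 0.06 to 0.78 for Ramp1 over Ramp2. No paired analysis was possible because no library number occurs in more than 1 group. Vipr1, with 46 to 185 counts per library, Adm, with 81 to 319, and Vipr2, with 97 to 267, had the fewest counts of the 9 genes. Counting error is largest for them, and Ramp3 is too scarce to compare.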

Other observations

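Levels of the receptor genes per level of a tissue's markers, computed after the other values had been seen, gave 2 further patterns, given here as values with no test. Npr3 per 1000 CPM of adipocyte markers was 16.0, 19.4 and 18.2 CPM in WT air 8, 9 and 10, and each of the other 9 libraries lay lower, at 5.30 to 14.5 in WT nicotine, 8.62 to 12.0 in KO air and 10.1 to 14.9 in KO nicotine. The unscaled Npr3 level showed no such separation. The adipocyte sums that it was divided by were lowest in WT air 9 and 10, at 1781 and 2889 CPM, and 5570 CPM in WT air 8. How many other genes separate on this scale was not counted. Relative to the brown fat sums, WT air did not stand apart. WT air 8 had 88.9 CPM of Npr3 beside a brown fat sum of 1879 CPM, and WT nicotine 11 had 79.4 CPM beside 1245 CPM. Calcrl per 1000 CPM of endothelial markers ranged from 53.5 to 103 CPM with all groups overlapping, and Ramp2 from 30.8 to 46.7 CPM.

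Ramp1 per 1000 CPM of smooth muscle markers was 2.91, 2.92 and 2.93 CPM in KO air 1, 2 and 7, a narrower spread than in WT air (2.33 to 2.90), WT nicotine (2.31 to 2.69) or KO nicotine (2.44 to 2.77). The smooth muscle sum itself differed between these KO air libraries, from 36988 to 44473 CPM.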
